A study of Mus musculus with 6 samples.

Results

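Gdf5, Osr1 and Osr2 are 3 genes known from the places where limb joints will form. They were read through all probe sets whose platform annotation gives exactly 1 symbol, equal to one of the 3 names: 4 of the 45037 probe sets tested, 1 each for Gdf5 and Osr1 and 2 for Osr2. Messenger RNA of the proximal hindlimb bud was measured in 6 pools of mouse embryos of the 129Sv strain at embryonic stage E11.5, with 1 array per pool. The wild-type group and the Lmx1b -/- group, called Lmx1b-null here, held 3 pools each. Every pool combined both hindlimb buds of 3 embryos, 6 buds in all, and about 500 µm of proximal tissue was taken. The labels name no cell-type-specific driver for the Lmx1b mutation and do not give the sex or litter of the pooled embryos, so p-values measure the spread between these pools. The title of the series asks which genes LMX1B, a LIM homeodomain transcription factor of dorsal limb mesenchyme, controls in the hindlimb.

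GDF5 is a secreted ligand of the bone morphogenetic protein family. Its gene is switched on in stripes across the cartilage condensations, where it marks the interzone that becomes a joint, and mice lacking it have missing joints and short limb bones. It signals through the type I receptor BMPR1B together with type II receptors, and noggin binds it outside the cell. OSR1 and OSR2 are related zinc-finger transcription factors of the odd-skipped family, active in developing joints and in the loose connective tissue of the limb. Osr1 also marks the intermediate mesoderm that forms the kidney, and Osr2 is needed for the palate.

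The Gdf5 transcript was lower in every Lmx1b-null pool than in any wild-type pool, and so was Osr2 in its bright probe set, whereas the Osr1 levels of the groups overlapped. The differences were 1.84-fold for Gdf5 and 1.40-fold for Osr2. None of the 4 probe sets passed the threshold of an adjusted p under 0.05 over all probe sets in limma, a linear model with moderated variance. Levels are log2 values from RMA, which removes background, makes the arrays comparable and joins the probes of a set into 1 value. A change is the mean of the null pools minus the mean of the wild-type pools on that scale, with the standard error (SE) of the fit.

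Gdf5, read by probe set 1419139_at and located on mouse chromosome 2, stood at 6.40, 7.51 and 7.08 in wild-type pools 1 to 3. In the null pools it stood at 6.14, 6.13 and 6.08. The groups did not overlap, and the null pools lay within 0.05 of each other while the wild-type pools spanned 1.10, with wild-type pool 1 nearest to the null pools. The means were 7.00 ± 0.56 and 6.11 ± 0.03 (SD, n = 3). The change was -0.88 (SE 0.23; 95% interval -1.42 to -0.34), with an unadjusted p of 0.00542 and a limma adjusted p of 0.313, which does not pass.

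Osr2, on chromosome 15, was read by a bright and a dim probe set. The bright one, 1426155_a_at, stood at 7.70, 7.91 and 7.85 in wild-type pools 1 to 3 and at 7.36, 7.45 and 7.18 in null pools 1 to 3. Each null pool lay below each wild-type pool, and the spread within the groups was similar. The means were 7.82 ± 0.11 and 7.33 ± 0.14 (SD, n = 3). The change of -0.49 (SE 0.09; 95% interval -0.70 to -0.28) had an unadjusted p of 0.000693 and a limma adjusted p of 0.156, also short of the threshold. The dim Osr2 probe set, 1430950_at, stood between 2.64 and 3.11 on all 6 arrays, below the lower quartile of each array. Its change of -0.19 (SE 0.11) had an adjusted p of 0.619, and at this brightness it could show little of a change in Osr2.

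Osr1, read by 1449350_at and located on chromosome 12, stood at 8.44, 8.89 and 8.91 in wild-type pools 1 to 3. It stood at 8.87, 8.57 and 8.99 in the null pools. The lowest wild-type pool lay below all null pools, and the other wild-type pools lay among them. The change was 0.06 (SE 0.15; 95% interval -0.29 to 0.41; limma adjusted p = 0.929). The interval leaves room for an Osr1 change anywhere between -0.29 and 0.41. The sign turned without wild-type pool 1 (-0.09), without null pool 3 (-0.03) and with Xist as a covariate (-0.13).

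**Figure D1:**
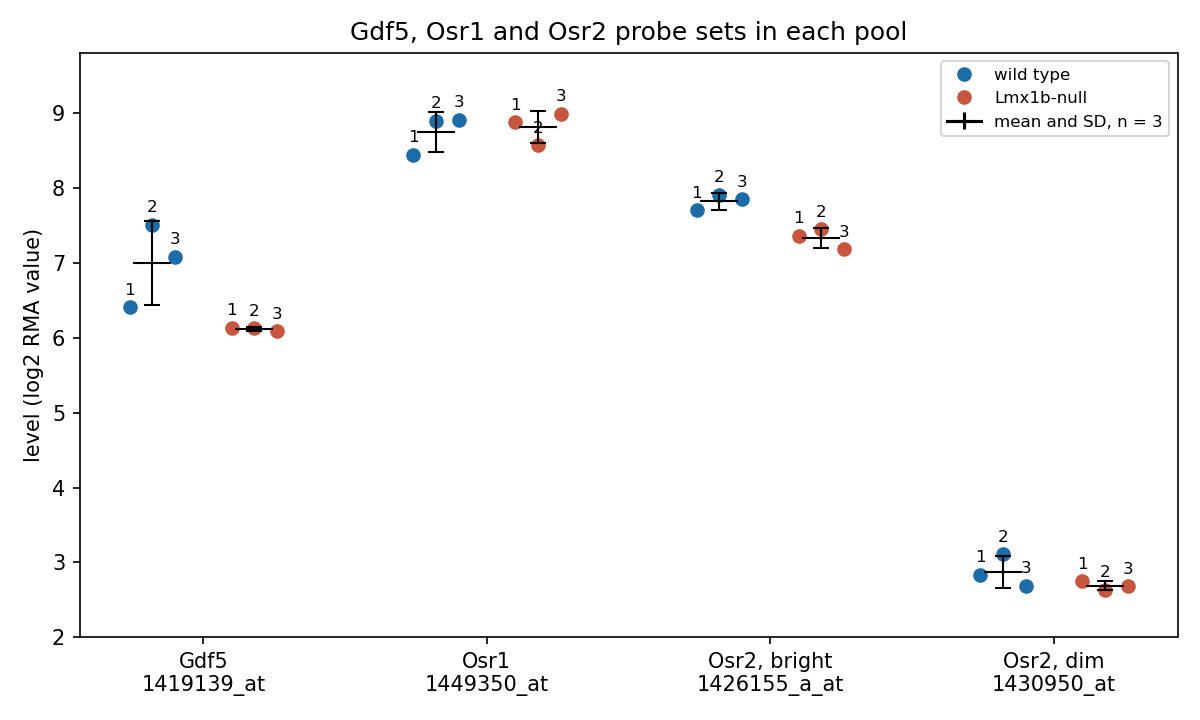
Level (log2 RMA value, vertical axis) of the 4 probe sets of Gdf5, Osr1 and Osr2 in each wild-type (blue) and Lmx1b-null (red) pool, with the pool number beside each point and bars for the mean and SD of n = 3. The null pools of Gdf5 sit between 6.08 and 6.14, below wild-type pools that span 1.10, and the Osr1 groups overlap.

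Across all 45037 probe sets, limma called 38, or 0.0844%, at an adjusted p under 0.05. The 0 calls among the 4 member probe sets are to be read beside that share. At an unadjusted p under 0.05, 2 of the 4 were lower, Gdf5 and the bright Osr2 set, beside 4.2% of all probe sets. The groups did not overlap, lower in null pools, for these same 2 of 4, beside 5.78% of all probe sets. By p, the bright Osr2 set ranked 197 and Gdf5 774 among all probe sets. In an exact permutation test over pools, two-sided, Gdf5 and the bright Osr2 set both gave p = 0.1, the smallest that 3 pools against 3 allow, and Osr1 gave p = 0.7.

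Lmx1b itself fell, as the labels require, from 8.02, 7.58 and 8.17 in wild-type pools to 4.62, 4.23 and 4.57 in null pools in its brighter probe set (limma adjusted p = 0.000544). Its dim probe set stood at 3.93 and 3.92, a change of -0.01 (adjusted p = 0.986). The arrays correlated at 0.993 to 0.997. Some pools stood apart in other genes. Xist, the transcript of the inactive X chromosome, was at 4.68 and 4.72 in wild-type pools 1 and 3, against 9.16 to 10.79 in wild-type pool 2 and the null pools. The Y-linked gene Eif2s3y was at 2.65 in null pool 3 and between 5.86 and 7.12 in the other 5 pools. Of 4 sex-linked genes, 0 passed over all genes. The part of these differences in the results was not tested beyond the fits given here.

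The size of the Gdf5 difference depended on wild-type pools 1 and 2. Without pool 1, the lowest, the change was -1.18 (SE 0.12) and passed the threshold over all probe sets (limma adjusted p = 0.0334), the single member call among the fits that left out 1 pool. Without wild-type pool 2, the highest pool, the change was -0.63 (adjusted p = 0.533). In the pools with a high Xist level, wild-type pool 2 stood at 7.51 against the null mean of 6.11. That difference of -1.39, in a setting chosen after seeing the data, is given as a value with no test: it rests on 1 wild-type pool, the highest of the 3, whose spread would have to be taken from the null pools (SD 0.03, against 0.56 in wild type). With Xist as a covariate over all pools, the Gdf5 change was -1.35 and did not pass (adjusted p = 0.336).

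The Osr2 change was steadier in size. It ran from -0.55 to -0.42 when 1 pool was left out and was -0.53 with Xist as a covariate. It passed in none of these fits. Between wild-type pool 2 and the null pools it was -0.58, again a value with no test. Over the 17 alternative fits, the bright Osr2 set kept its sign, with changes from -0.58 to -0.42. These fits reuse the same arrays, and 1 of them leaves 1 wild-type pool, so their p-values are not counted as support. Gdf5 also kept its sign, with changes from -1.39 to -0.63, the fit with 1 wild-type pool included. Osr1 kept its sign in 13 of the 17, with changes from -0.13 to 0.18.

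**Figure D2:**
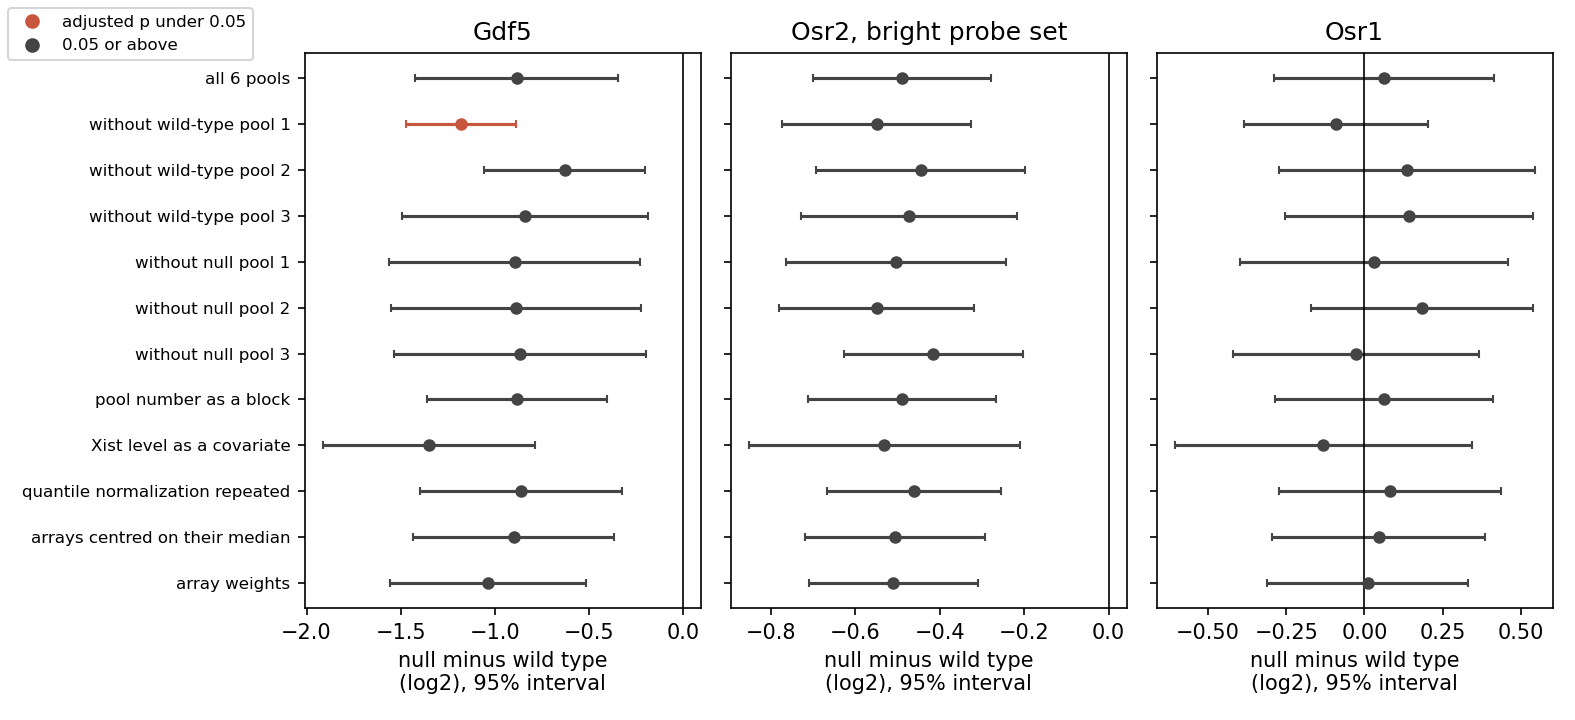
Change (Lmx1b-null minus wild type, log2, horizontal axis) with its 95% interval for Gdf5, the bright Osr2 probe set and Osr1, with all 6 pools, without each pool in turn and under 5 other fits; red marks an adjusted p under 0.05. Gdf5 is red once, without wild-type pool 1 at -1.18, and the Osr1 intervals all include 0.

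Whether the 3 genes changed by different amounts was asked within pools, by subtracting the log2 value of 1 gene from that of another on the same array, a measure added after the data were seen. Osr2 minus Osr1 was -0.74, -0.99 and -1.06 in wild-type pools and -1.52, -1.12 and -1.81 in null pools. These groups did not overlap, and the difference changed by -0.55. Gdf5 minus Osr1 was -2.04, -1.39 and -1.83 in wild-type pools and -2.74, -2.44 and -2.91 in null pools, again without overlap, and changed by -0.95. Both gave p = 0.1 in the exact permutation test, the smallest possible, and 0.15 adjusted over the 3 pairs compared. Gdf5 minus Osr2 changed by -0.39 with overlapping groups (exact p = 0.3, adjusted 0.3). This exact test over 3 pools a side cannot go below 0.1 for any pair, so the unequal change of Osr1 and its relative Osr2 is given as a description. In bulk tissue, fewer cells that express a gene and less RNA per cell cannot be told apart.

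**Figure D3:**
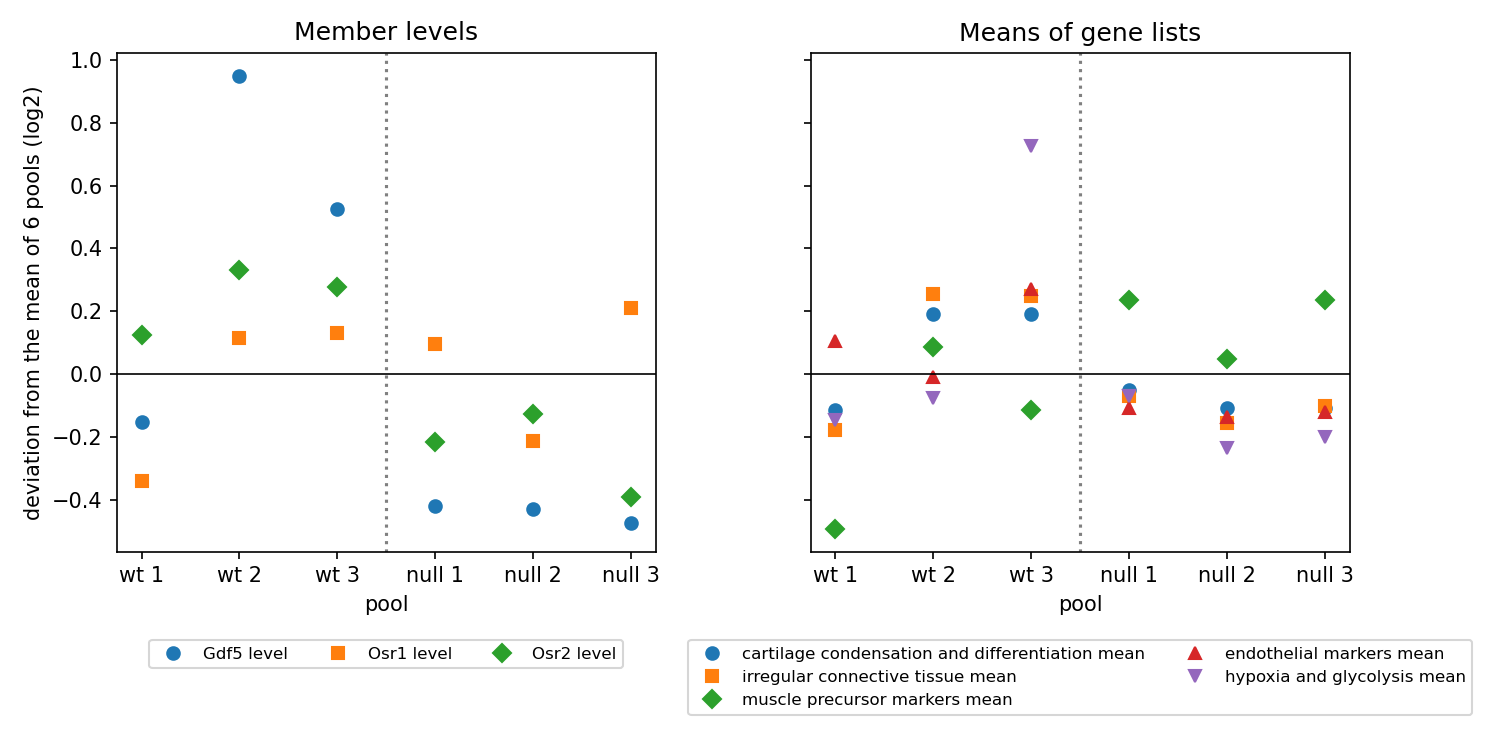
Deviation of each pool from the mean of the 6 pools (log2, vertical axis) for Gdf5, Osr1 and the bright Osr2 probe set (left) and for the mean of 5 gene lists without these genes (right); the dotted line separates wild-type (wt) from null pools. Wild-type pool 1 lies with the null pools in the cartilage and connective tissue lists and below the other wild-type pools in Gdf5, Osr1 and Osr2. In the muscle precursor list that pool lies lowest, at -0.49, against 0.05 to 0.24 in null pools.

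The pathway of GDF5 was followed through its relatives, receptors and antagonists, at 1 probe set per gene, the brightest, over 18193 genes. At this level 0.104% of all genes passed an adjusted p under 0.05, 0.0879% lower and 0.0165% higher, and 9.8% had an unadjusted p under 0.05, 3.88% lower and 5.92% higher, and the median change was 0.02. Of the 18193 genes, 989 were lower in null pools without overlap of the groups and 1666 were higher. Gdf6 and Gdf7, the closest relatives of Gdf5, were not analysed here. Of 8 ligands measured, counting Gdf5, 0 passed in limma over all genes. At an unadjusted p under 0.05, 2 were lower and 2 higher, and the median change was 0.02 with a mean of -0.06. Bmp4, a ligand active throughout the limb bud, stood at 8.62, 8.51 and 8.71 in wild-type pools and 8.43, 8.34 and 8.24 in null pools, without overlap (change -0.28, SE 0.08; limma adjusted p = 0.338). Gdf10 went the other way, also without overlap, from 5.98, 6.53 and 6.63 to 6.97, 7.06 and 7.02. Its change was 0.64 (SE 0.15, limma adjusted p = 0.274). Bmp6 had a change of 0.25 without overlap, at levels of 3.80 and 4.04. Bmp2, which is expressed in the limb and its ridge, stood at 6.09, 6.99 and 6.93 in wild-type pools and 6.34, 6.40 and 6.26 in null pools. Wild-type pool 1 lay below all null pools in Bmp2, whereas in Gdf5 it lay above them. The Bmp2 change was -0.33 (limma adjusted p = 0.646). Without wild-type pool 1 it was -0.62 and passed at gene level (adjusted p = 0.0352), as did Gdf5 (0.0222). With any other single pool left out, 0 of the 8 ligands passed.

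The receptors and SMADs that carry GDF5 signals stayed close to 0 in all their estimates. Of 11 measured, 0 passed in limma and 1 had an unadjusted p under 0.05, beside 9.8% of all genes. The changes ran from -0.16 to 0.14 with a median of 0.00. Bmpr1b, the preferred type I receptor of GDF5, stood at 6.60, 6.83 and 6.84 in wild-type pools and 6.58, 6.74 and 6.72 in null pools in its bright probe set. Those groups overlapped, with a change of -0.08 (SE 0.09; adjusted p = 0.829 over all probe sets). Its 2 dimmer probe sets had changes of 0.04 and -0.07 at wild-type means of 3.75 and 3.28. The member at an unadjusted p under 0.05 was Bmpr2, a type II receptor, at -0.16 with groups that did not overlap (limma adjusted p = 0.509). Next by p stood Acvr1 at 0.14 and Smad1 at 0.07, a type I receptor and a signal transducer.

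Among 11 antagonists of BMP and GDF ligands, 1 fell over all genes, 0 rose and 10 did not pass, with a median change of -0.01. Of all genes, 0.0879% passed lower and 0.0165% higher. Grem1, an antagonist of the posterior limb mesenchyme, fell from 6.47, 6.44 and 6.43 to 5.90, 5.82 and 5.79 (change -0.61, SE 0.06; gene-level limma adjusted p = 0.0177). Its call held without wild-type pool 1 (0.0349) and was lost without any other single pool (0.0697 to 0.0888), while the change stayed between -0.64 and -0.58. Chrdl1, a chordin-like antagonist, was at -0.53 without overlap (adjusted p = 0.165). Fst and Sostdc1, a pair of secreted inhibitors, were at 0.46 and 0.52, also without overlap (limma adjusted p = 0.404 and 0.42). Nog, which encodes noggin, stood at 3.55, 4.47 and 4.17 in wild-type pools and 3.57, 3.37 and 3.65 in null pools. Wild-type pool 1 again lay with the null pools there, and the change of -0.53 did not pass (adjusted p = 0.471).

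**Figure D4:**
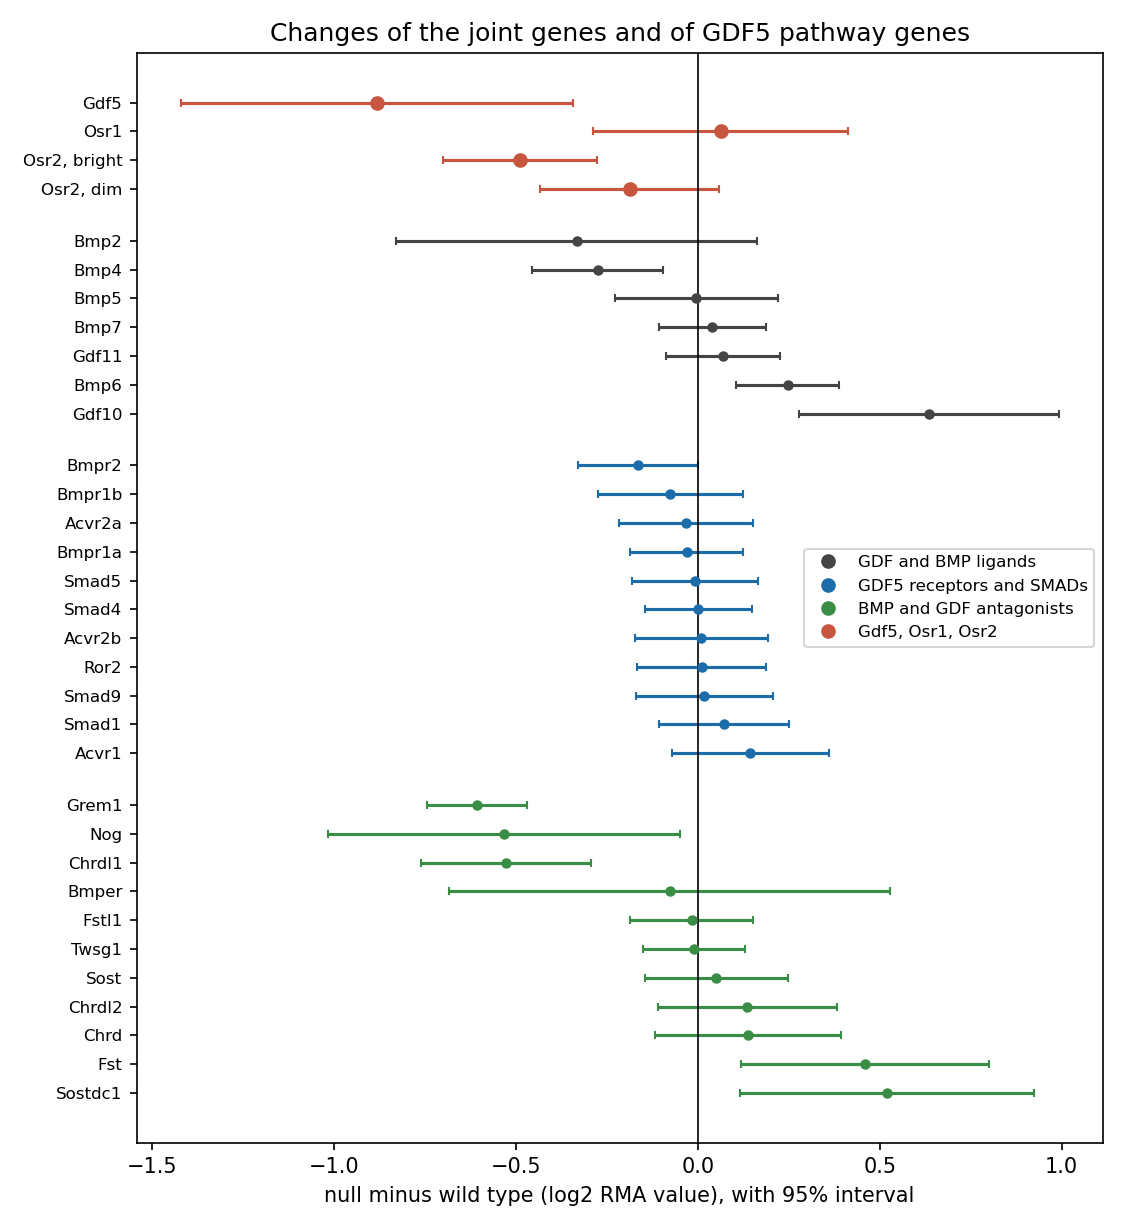
Change (Lmx1b-null minus wild type, log2, horizontal axis) with its 95% interval for the 4 probe sets of Gdf5, Osr1 and Osr2 and, 1 probe set per gene, for the other ligands, the receptors and SMADs and the antagonists. The receptors and SMADs lie between -0.16 and 0.14, and Gdf5 lies lowest at -0.88.

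Other genes of the joint interzone lay on both sides of 0, and some were dim. Prg4 and Nkx3-2 had wild-type means of 2.87 and 3.22, under the arrays' lower quartile of 3.31 to 3.36, and could show little of a change. Of 17 measured, 0 passed in limma over all genes. At an unadjusted p under 0.05, 4 were lower and 1 higher, beside 3.88% and 5.92% of all genes. The median change was 0.06, with a mean of -0.12 that includes Dcx at -1.87. Without wild-type pool 1 the median was -0.04. Dcx, the microtubule protein doublecortin, known from migrating neurons and also from articular precursors, was at 8.34, 8.19 and 7.90 in wild-type pools and 5.62, 6.76 and 6.43 in null pools. The groups were far apart, at a change of -1.87 (SE 0.26), yet the limma adjusted p was 0.0762. Vcan, the matrix proteoglycan versican, was at -0.53 (adjusted p = 0.355), and Trps1, a zinc-finger repressor of cartilage and joints, at -0.32 (0.375). Cd44, the hyaluronan receptor gene, was at 0.26 (0.402). Erg, a transcription factor gene of joints and of endothelium, was at -0.28 (0.479). The 8 endothelial marker genes were all lower, 0 of them past the threshold, with list means of 6.65 to 6.93 in wild-type and 6.52 to 6.55 in null pools. The part of endothelium in the Erg value was not tested.

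The cartilage list gave the background on which interzones form. Of 22 genes measured, 1 fell over all genes, 0 rose and 21 did not pass, beside 0.0879% of all genes that passed lower. The median change was -0.08. At an unadjusted p under 0.05, 5 were lower and 1 higher, beside 3.88% and 5.92% of all genes. Cnmd, the cartilage glycoprotein chondromodulin, stood at 6.31, 6.97 and 6.93 in wild-type pools and 5.11, 5.20 and 4.62 in null pools (change -1.76, SE 0.21; gene-level limma adjusted p = 0.0354). Its call held without wild-type pool 1 (0.00804) and was lost without any other single pool (0.0789 to 0.171), while the change stayed between -1.97 and -1.58. Hapln1, the cartilage link protein gene, was at -0.76 (adjusted p = 0.102) and Sox5, a cartilage transcription factor gene, at -0.29 (0.314). Sox9, the master regulator of cartilage, was at -0.19 (0.448), and Runx3 at 0.22 (0.435). The list mean was 6.65 in wild-type pool 1 and 6.95 in wild-type pools 2 and 3, against 6.65 to 6.71 in null pools. The count of 5 lower became 10 without wild-type pool 1, beside 4.19% of all genes lower in that fit. It fell to 3 when wild-type pool 3 was dropped, beside 5.17% of all genes. Dropping null pool 3 also gave 3, beside 3.31% of all genes. The median of -0.08 became -0.18 without wild-type pool 1, -0.0038 without wild-type pool 2, -0.02 without wild-type pool 3. Leaving out null pool 2 gave -0.05. Whether the cartilage level carries the Gdf5 difference was not tested.

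Osr1 and Osr2 mark irregular connective tissue, and 15 other genes of that tissue were measured. With Osr1 and Osr2, 0 of 17 passed over all genes in limma, and the median change was -0.13. At an unadjusted p under 0.05, 7 were lower and 3 higher, beside 3.88% and 5.92% of all genes. Lum, the proteoglycan lumican, stood at 8.04, 8.89 and 8.74 in wild-type pools and 7.19, 6.80 and 7.18 in null pools (adjusted p = 0.0762). Lox, the collagen cross-linking enzyme gene, was at -1.15 (adjusted p = 0.204) and Dcn, decorin, at -0.79 (0.261). Without wild-type pool 1, Lum, Lox and Dcn passed at gene level, with limma adjusted p of 0.00594, 0.000357 and 0.00804, and the median was -0.19. These calls depended on leaving out that pool. With any other single pool left out, 0 of the 17 passed, and Lum had an adjusted p of 0.18 to 0.283. Without wild-type pool 2 the median turned to 0.01. Cxcl12, a chemokine gene of limb connective tissue, was at 0.30 (adjusted p = 0.202). The list mean without Osr1 and Osr2 was 7.54 in wild-type pool 1 and 7.97 in wild-type pools 2 and 3, against 7.56 to 7.65 in null pools. Whether the connective tissue level carries the Osr2 difference was not tested.

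**Figure D5:**
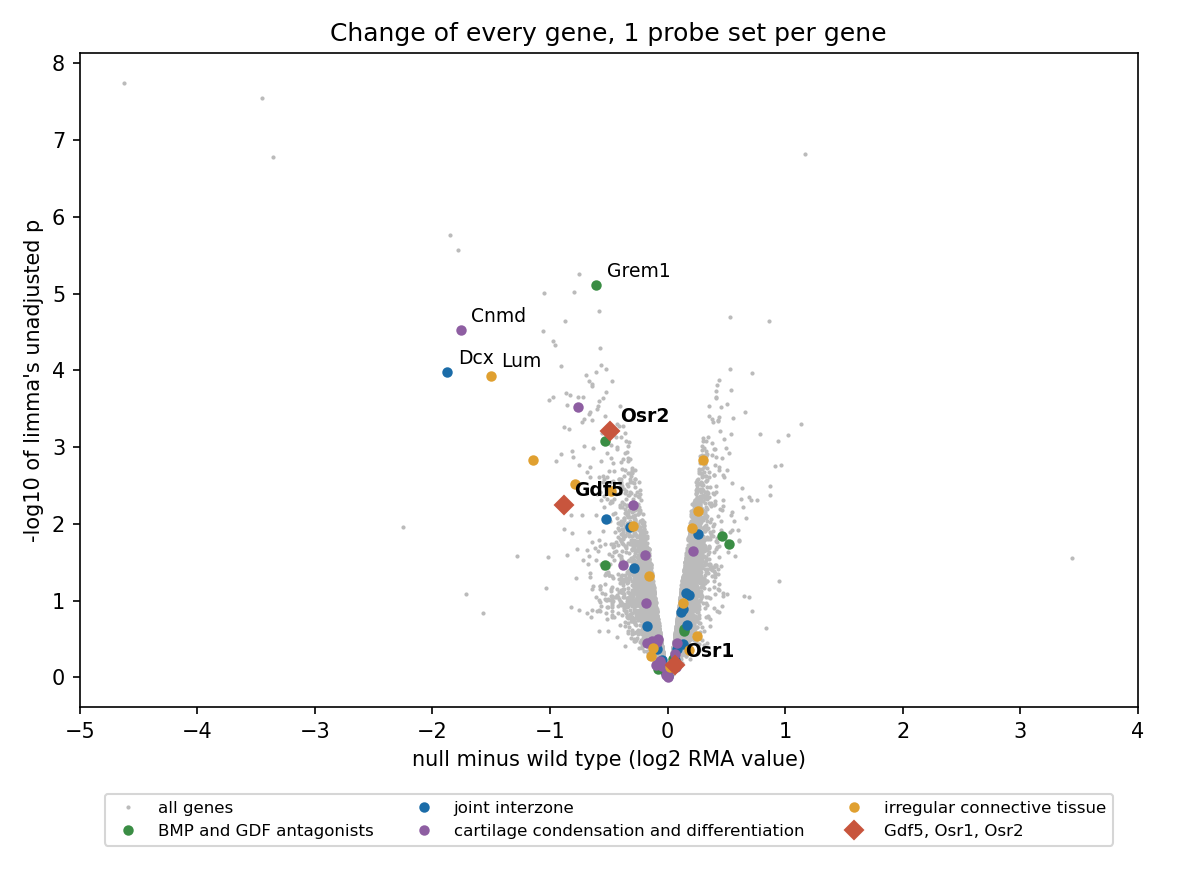
Change (Lmx1b-null minus wild type, log2, horizontal axis) against -log10 of limma's unadjusted p for 18193 genes (grey), with 4 gene lists in colour and Gdf5, Osr1 and Osr2 as diamonds. Gdf5 and Osr2 lie on the left, below Grem1 and Cnmd, and Osr1 lies near 0.

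The tissue was checked against markers of limb mesenchyme and of other cells. The 17 limb mesenchyme markers had a mean level of 9.25 to 9.35 in wild-type pools and 9.11 to 9.20 in null pools. That mean was lower in each null pool, but the median change was -0.01, with 10 genes below and 7 above wild type. Emx2 and Shox2 had the largest falls, at -0.97 and -0.80. Of the 17, 1, Shox2, fell over all genes (gene-level limma adjusted p = 0.0177), beside 0.0879% of all genes that passed lower. Kidney precursors, which also express Osr1, were looked for by a list of markers, of which Pax2 was not analysed. Pax8 and Lhx1, named after their values were seen and the lowest of the list, stood at 2.95 and 2.91 in wild-type pools. Both stood at 3.10 in null pools. Foxd1, Cdh16, Wt1 and Gdnf stood at 3.14, 4.44, 4.47 and 5.60 in wild-type pools. Whether kidney precursors were present was not tested. Others of the list, which limb cells also express, stood higher, with Sall1 at 8.38, Six2 at 7.52 and Eya1 at 6.87 in wild-type pools. The list of 9 genes had means of 5.07 to 5.19 in wild-type and 5.09 to 5.26 in null pools, and 0 passed. Muscle precursor genes, 10 in number, had means of 6.36 to 6.94 in wild-type and 6.90 to 7.09 in null pools, with the lowest in wild-type pool 1; 0 passed. The means of 10 somite and neural genes were higher in each null pool, at 5.34 to 5.37 against 5.01 to 5.21, with 0 past the threshold. The 12 hypoxia and glycolysis genes averaged 8.91 in wild-type pool 3 and 7.95 to 8.12 in the other 5 pools. Ectoderm, with 8 genes, averaged 6.46 to 6.73 in wild-type and 6.66 to 6.79 in null pools. Blood and macrophage genes, 7 in number, averaged 6.14 to 6.22 and 6.17 to 6.27. The 12 immediate early and heat shock genes averaged 6.02 to 6.17 and 6.12 to 6.22, and 0 members of these last 4 lists passed. The part of these levels in the Gdf5 and Osr2 values was not tested.

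Genes whose level followed each member over the 6 arrays were picked by Pearson's r among 2463 probe sets at or above the median level with a range of at least 0.5. With 6 arrays that share 2 groups, such values are a description. Gdf5 was followed most closely by Alcam, a cell adhesion molecule gene (r = 0.993), then by Tmem26 (0.987), the heparan sulphate proteoglycan gene Sdc2 (0.984), Atpsckmt (0.983) and the growth hormone receptor gene Ghr (0.982). It ran most against Bcat2 (-0.969), Amot, Ywhaz, Laptm4b and Esco1 (-0.949). Osr2 was followed by Cnmd (0.993), Cpq (0.992), Cd99l2 (0.990), the protocadherin gene Pcdh7 (0.987) and the survival gene Bcl2 (0.986). It ran against Stambpl1 (-0.984), Scube1, Hsd3b3, Srxn1 and Lrrc4b (-0.940). Osr1 was followed by Sytl1 (0.989), the matrix glycoprotein gene Sparc (0.959), Mlxipl, Rflna and Tle2 (0.943), and ran against Ninl (-0.963), 2700099C18Rik, 4930430F08Rik, Nkrf and Ggps1 (-0.931). Of these 30 probe sets, only that of Cnmd passed the threshold in limma. Between the members themselves, r was 0.893 for Gdf5 with Osr2, 0.274 for Gdf5 with Osr1 and -0.138 for Osr1 with Osr2.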

How the data were processed

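Before deposit the authors made the log2 values with RMA, per the submitters' processing notes, with no version in the sources used here. The base was read as 2 because the values run from 1.77 to 13.7 with near-equal quartiles; no label states the base. RMA equalizes arrays, so a shift of most transcripts would not show. RNA integrity was read on a Bioanalyser and biotinylated cRNA was hybridised, per the labels' protocols. Of 45101 probe sets, 64 controls were left out. Symbols came from the platform annotation, and chromosomes and gene order from RefSeq (GRCm38.p6); no source used here names a build for the arrays, so no coordinates are printed. Groups were compared with lmFit and eBayes of limma 3.58.1 in R 4.3.3, with Benjamini-Hochberg adjustment over all 45037 probe sets, or over 18193 genes at the brightest probe set each, and tested on simulated data.

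The members and the 16 lists were chosen with earlier results of these data known. Named genes are the 4 member probe sets, Bmpr1b, Lmx1b, sex markers, list genes past the threshold with up to 4 more of smallest p (given for the 6 pathway and tissue lists; marker lists are given as means), and the 5 highest and 5 lowest by r. Bmp2, Nog, Erg and Sox9 in their paragraphs, Dcn and chromosomal neighbours were named after values were seen. Of 194 list genes, 182 were analysed. Alternatives were 17 fits: another normalization or centring, variance models, weights, filters, the threshold, the pool block, Xist and each pool left out; fits on pools with a high Xist level were added after seeing the data. The number of arrays limits the precision.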

Additional observations from a re-analysis of the deposited data

How the results depend on the processing

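Each group held 3 pools, and the median SE over all probe sets was 0.0843. Gdf5 (0.234), Osr1 (0.152) and the bright and dim Osr2 sets (0.0919 and 0.107) were all measured less precisely. The cause of the differences between settings was not tested. Against 38 probe sets and 19 genes called, an intensity trend gave 94 and 36, an adjusted p under 0.1 gave 99 and 47, Xist as a covariate gave 9 and 5, and pools with a high Xist level gave 10 and 11. Weighting the arrays gave 69 and keeping bright probe sets 20 instead of 38. Leaving out 1 pool gave 13 to 38 probe sets and 4 to 37 genes. With the pool number as a replicate block, 14 probe sets and 9 genes were called; the deviations of pools that carry the same number correlated at -0.239, -0.0878 and -0.168, so they share only a number, and no member call changed with the block.

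Of the 4 member probe sets, 0 passed with all pools and 0 to 1 with a pool left out (Gdf5, -1.18, without wild-type pool 1). In pools with a high Xist level, Gdf5 was at -1.39, a value with no test. That fit rests on 1 wild-type pool and the null SD of 0.03 (0.56 in wild type) and is no support for a call. With 1 pool left out Gdf5 ran from -1.18 to -0.63. Gdf5 and both Osr2 probe sets kept their sign in each alternative fit. Osr1 turned to -0.13 with Xist as a covariate and -0.08 (-0.0835) in pools with a high Xist level, and ran from -0.0914 to 0.18 with a pool left out, turning also without null pool 3 (-0.03). The 3 differences between members kept their sign, and Gdf5 minus Osr1 moved to -1.31 in pools with a high Xist level. The dim Bmpr1b probe sets turned sign near 0: 1422872_at to 0.00 (-0.000577) with quantile normalization repeated, -0.01 (-0.0136) with Xist, -0.05 (-0.0463) in pools with a high Xist level, and from -0.0545 to 0.0876 with a pool left out; 1443720_s_at ran from -0.154 to 0.0457 with a pool left out and was 0.0260 in pools with a high Xist level.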

Other observations

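The chromosomal neighbours of the 3 genes were read from the RefSeq gene order, a choice made after the data were seen. The 10 nearest measured protein-coding genes on each side of Osr2 included 6 of 20 at an unadjusted p under 0.05, 4 lower and 2 higher in null pools, beside 9.8% of all genes. With 25 genes on each side it was 13 of 50, 8 lower and 5 higher, and 0 passed the adjusted threshold in limma. Around Gdf5 it was 1 of 50 and around Osr1 6 of 50. Close to Osr2, Pop1, which encodes a subunit of RNase P, stood at 6.62, 6.40 and 6.31 in wild-type and 6.04, 6.17 and 5.91 in null pools. The next-door gene Kcns2 had a change of 0.00 at levels near 3.13, and Cox6c one of 0.03. Vps13b, a vesicle transport gene on the other side, had a change of -0.30, Nipal2 of 0.24 and Fbxo43 of 0.23, none past the threshold (limma adjusted p = 0.427, 0.42 and 0.314). The next-door genes of Gdf5, Uqcc1 and Cep250, had changes of -0.02 and -0.04.

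Of the 10 genes that followed or ran against Gdf5 most closely, 5 lie on chromosome 15, the chromosome of Osr2, namely Sdc2, Atpsckmt, Ghr, Ywhaz and Laptm4b. Chromosome 15 held 3.25% of the 2463 probe sets they were picked from. For Osr2 it was 2 of 10, Cpq and Scube1, and for Osr1 0 of 10. Genes near each other on a chromosome are not independent, and no test was made of these counts. The labels give 129Sv for all pools and say nothing of how the Lmx1b line was bred, so whether the groups share 1 background around Osr2 was not tested.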
